A study of Mus musculus with 59 samples.

Results

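Wild-type mouse glia cultured with neurons that carry the SOD1 G93A mutation were compared with wild-type glia cultured with wild-type neurons. Of 13891 genes tested, 1 passed the test, the neurofilament gene Nefm, and it was lower beside mutant neurons. The comparison rests on the 5 libraries of wild-type glia with mutant neurons (WTG_MTN) and the 6 libraries of wild-type glia with wild-type neurons (WTG_WTN), 11 of the 59 libraries of the series. Libraries were chosen by the labelled genotype of glia and neurons and by the cell type that the RNA was read from, and were paired by day and replicate number. WTG_MTN had 1 library at day 3 (replicate 2) and replicates 1 and 2 at days 7 and 14. WTG_WTN had replicates 1 and 2 at days 3, 7 and 14, so that 5 pairs could be formed and WTG_WTN day 3 replicate 1 had no partner. All 11 libraries share the wild-type genotype of the glia, and only WTG_MTN carries the mutation, in its neurons. The 12 libraries of glia with the mutation (MTG_MTN and MTG_WTN) and the 8 neuron libraries from the same 2 pairings of wild-type glia (MTN_WTG and WTN_WTG) are used below only where they show how these glia differ. The labels do not give the promoter of the SOD1 allele, the age or strain of the animals, or how the glia and neurons were obtained.

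SOD1 encodes the cytosolic superoxide dismutase, and dominant mutations in it cause familial amyotrophic lateral sclerosis, in which motor neurons die. Glia are part of that disease: astrocytes clear glutamate and potassium around neurons, supply lactate and lipids and adjust their own gene expression to signals from neurons, while microglia respond to damage. Cultures that mix genotypes ask which changes in one cell type depend on the genotype of the other, and here the question was what a mutant neuron does to a wild-type glial cell.

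The values are RPKM (read counts divided by transcript length and library depth), rescaled between libraries, and differences are on the log2(RPKM + 1) scale unless stated otherwise. Reads on genes numbered 8559616 to 21127601 in WTG_MTN libraries and 3740497 to 20230242 in WTG_WTN libraries, of which the smallest was day 14 replicate 1. Libraries of one pair lay much closer together than replicates of one group. The SD over genes of the log2 difference was 0.134 to 0.257 between WTG_MTN and WTG_WTN of the same day and number, against 0.393 to 0.543 between replicates 1 and 2 of one group. It was 0.153 to 0.298 between the MTG_MTN and MTG_WTN libraries of a pair, and 0.213 to 0.515 between WTG_WTN and MTG_WTN libraries of the same day and number, which differ in the genotype of the glia. WTG_WTN day 3 replicate 1 stood apart, with a scaling factor of 1.53 against 0.866 to 0.946 in the paired libraries, and entered no paired result.

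**Figure D1:**
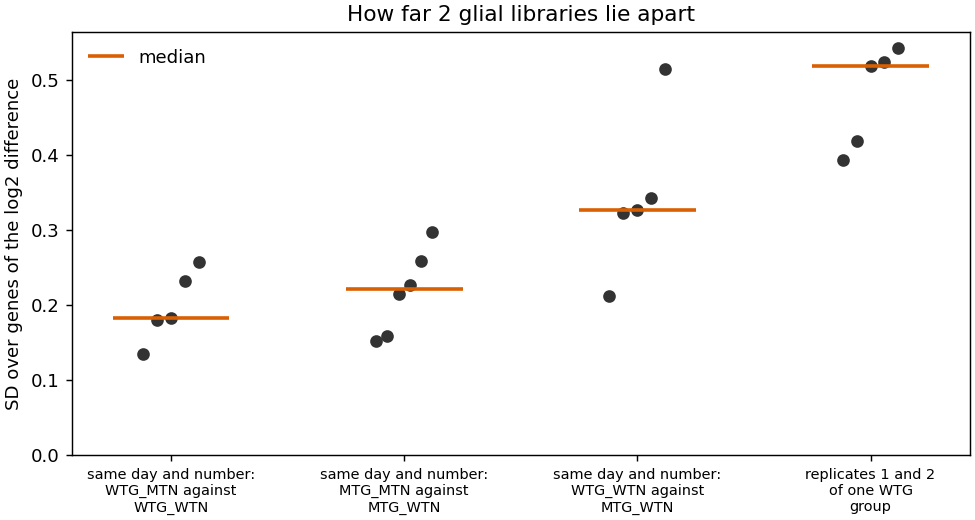
SD over 13891 genes of the log2(RPKM + 1) difference between 2 glial libraries (vertical axis), for libraries of the same day and number that differ in neuron or glia genotype and for replicates 1 and 2 of one WTG group. Each point is 1 comparison of libraries and the bar is the median. The 5 WTG_MTN against WTG_WTN pairs lie at 0.134 to 0.257, below all 5 comparisons of replicates.

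The libraries held markers of several glial and non-glial cell types. The 14 astrocyte markers summed to 2157 to 3214 RPKM in WTG_MTN and to 2141 to 2703 RPKM in the paired WTG_WTN libraries, and none of them was under 1 RPKM throughout. Markers of microglia and macrophages (16 genes) summed to 1736 to 3519 RPKM in WTG_MTN against 1943 to 4413 RPKM in WTG_WTN, and oligodendrocyte lineage markers (13 genes) to 171 to 458 RPKM against 173 to 386 RPKM. Fibroblast and meningeal markers (12 genes) summed to 320 to 1473 RPKM in WTG_MTN and 331 to 1449 RPKM in WTG_WTN. Pericyte and smooth muscle markers (10 genes) were higher than these in sum, at 873 to 1734 RPKM in WTG_MTN and 1043 to 2121 RPKM in WTG_WTN, and 4 of the 10 were under 1 RPKM in all 10 paired libraries. Schwann cell and neural crest markers (10 genes) summed to 180 to 353 RPKM in WTG_MTN against 192 to 317 RPKM in WTG_WTN, and ependymal and cilia markers (8 genes) to 58.0 to 182 RPKM against 46.8 to 229 RPKM. Neuronal markers (16 genes) summed to 184 to 335 RPKM in WTG_MTN and 185 to 291 RPKM in WTG_WTN, against 1059 to 10632 RPKM in the neurons read from cultures with wild-type glia, and were higher in WTG_MTN in 2 of the 5 pairs. None of the neuronal markers was at 0 in all 10 paired libraries and 2 were under 1 RPKM in all of them. Markers of endothelial cells and skeletal muscle were low, at most 56.2 RPKM and 23.5 RPKM in sum in any WTG_MTN library, and no red blood cell or pluripotency marker reached 1 RPKM in a paired library.

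Nefm encodes the medium neurofilament chain, a subunit of the intermediate filaments that fill axons. In WTG_MTN glia it was at 5.89 RPKM at day 3, 8.36 and 2.53 RPKM at day 7 and 3.98 and 5.75 RPKM at day 14, replicate by replicate. In the paired WTG_WTN glia it was at 12.97 RPKM at day 3, 17.1 and 7.78 RPKM at day 7 and 7.26 and 20.6 RPKM at day 14. It was lower beside mutant neurons in each of the 5 pairs, while the groups as a whole overlapped: day 7 replicate 1 of WTG_MTN exceeded 2 of the WTG_WTN libraries. The unpaired WTG_WTN day 3 replicate 1 had the highest level, 51.4 RPKM. Behind these values stood 259, 227, 100, 85 and 310 reads in WTG_MTN and 559, 628, 296, 68 and 1061 reads in WTG_WTN, in the same order of pairs. Nefm averaged 5.30 ± 2.20 RPKM in WTG_MTN and 13.1 ± 5.79 RPKM in WTG_WTN (SD, n = 5 each), a log2 difference of -1.14 (SE 0.12, limma with the pair as block, adjusted p = 0.031, Benjamini-Hochberg over 13891 genes). That 1 call is 0.0072% of the genes tested, and 1471 genes (10.6%) had an unadjusted p under 0.05, of which 652 were higher (4.69%) and 819 lower (5.9%). An exact sign-flip permutation test over 5 pairs cannot reach p = 0.05 for any gene. In bulk RNA of this kind, fewer cells of a type and less RNA per cell cannot be told apart.

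The call on Nefm rested on the pairing and on single pairs. The adjusted p was 0.15 without the day 3 pair, 0.14 without day 7 replicate 1 and 0.13 without day 7 replicate 2, against 0.021 without day 14 replicate 1 and 0.026 without day 14 replicate 2. With 11 libraries and no pairing it was 1.0, with the log2 difference at -1.37.

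The other neurofilament chains did not pass the test. Nefl, the light chain, was at 28.7, 20.5, 6.76, 12.0 and 41.2 RPKM in WTG_MTN and at 11.3, 9.80, 8.03, 13.8 and 36.4 RPKM in WTG_WTN, in the order of day 3, day 7 replicates 1 and 2 and day 14 replicates 1 and 2. It was higher beside mutant neurons in 3 pairs and lower in the other two, with a mean log2 difference of 0.41 (SE 0.20, adjusted p = 0.50 by limma), to which the day 3 pair gave 1.27, day 7 replicate 1 gave 0.99 and the others -0.22 to 0.17. Nefh, the heavy chain, was at 0.32 to 2.42 RPKM in WTG_MTN against 0.13 to 1.85 RPKM in WTG_WTN and was higher in all 5 pairs by 0.21 on average (SE 0.076, adjusted p = 0.42). Of the 14 neuronal markers tested, 8 had a log2 difference above 0 and 6 below 0, with a median of 0.023. Prph, the intermediate filament of motor and sensory neurons, was at 2.65 to 12.4 RPKM in WTG_MTN and 3.80 to 13.8 RPKM in WTG_WTN, and Stmn2, which acts on axonal microtubules, averaged 31.1 RPKM and 31.6 RPKM. Map2, a dendritic microtubule protein, was higher in all 5 pairs by 0.26 (SE 0.068, adjusted p = 0.37).

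**Figure D2:**
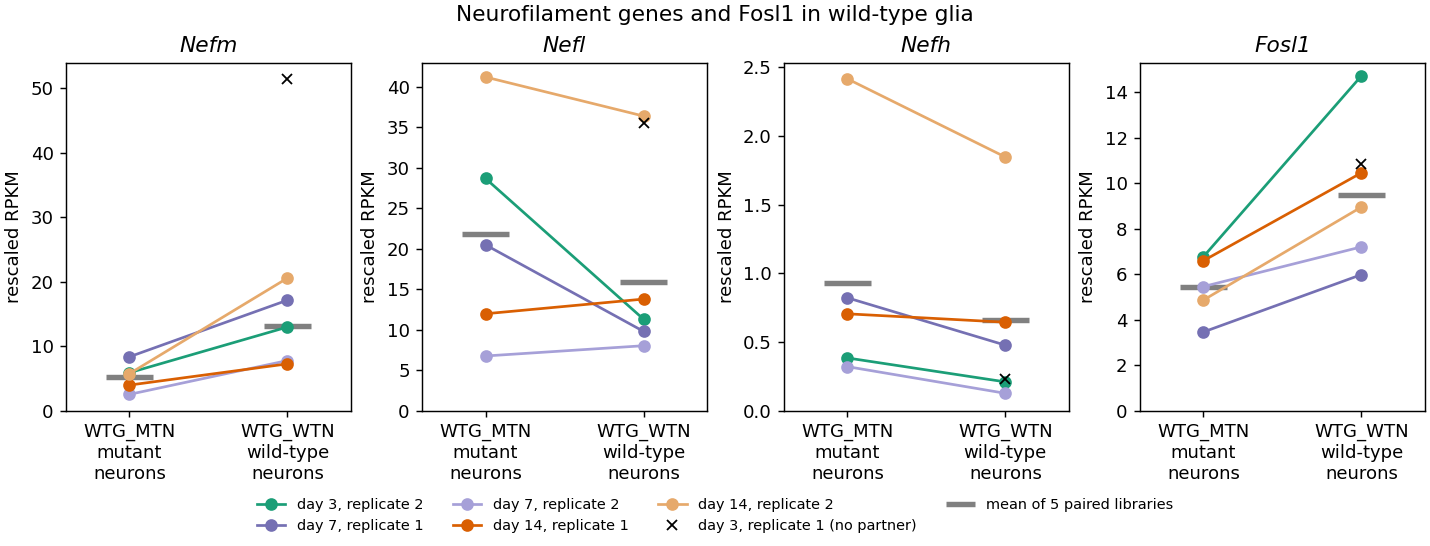
Rescaled RPKM (vertical axes, linear, each gene on its own range) of Nefm, Nefl, Nefh and Fosl1 in WTG_MTN glia (left of each panel) and WTG_WTN glia (right), with a line joining the libraries of one day and replicate number, a grey bar at the mean of the 5 paired libraries and a cross for the unpaired WTG_WTN library. All 5 lines of Nefm and of Fosl1 lie lower on the WTG_MTN side, those of Nefh lie higher, and those of Nefl go both ways.

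The neurons of the same pairings held the neurofilament genes at far higher levels. Nefm was at 747, 487 and 89.8 RPKM in mutant neurons grown with wild-type glia (MTN_WTG at day 3 replicate 1, day 7 replicate 2 and day 14 replicate 1), against 3838, 1158 and 163 RPKM in wild-type neurons (WTN_WTG). It was lower in the mutant neurons in all 3 pairs. Nefl was at 2038, 2844 and 552 RPKM in MTN_WTG and at 1543, 1445 and 241 RPKM in WTN_WTG, higher in all 3. Glial and neuronal libraries of the same pairing, day and number were set side by side, although the labels do not say that they came from the same culture. The scaling factors of the glia were made without the neuronal libraries, so glial and neuronal values stand on separate scales. The shares given here are ratios of such values, not measured fractions of the neuronal level. At day 7 replicate 2 the Nefm level of WTG_MTN glia was 0.520% of that of MTN_WTG neurons and the level of WTG_WTN glia 0.672% of that of WTN_WTG neurons, and at day 14 replicate 1 the shares were 4.43% and 4.45%. Other neuronal genes did not have such close shares at day 14 replicate 1. There the share was 2.17% in WTG_MTN against 5.71% in WTG_WTN for Nefl, 1.35% against 3.99% for Nefh and 2.04% against 9.31% for Prph. It was 1.60% against 5.65% for the synaptic protein gene Snap25 and 6.18% against 13.1% for the neuronal tubulin gene Tubb3. That pair holds the smallest library, with 10 reads of Nefh in WTG_WTN. At day 7 replicate 2 the shares in WTG_MTN and WTG_WTN were 0.238% and 0.556% for Nefl and 0.330% and 0.679% for Prph. They were 0.260% and 0.446% for Snap25 and 2.79% and 4.00% for Tubb3, while Nefh went the other way (0.326% and 0.237%). The part of neuronal RNA in the glial difference was not tested.

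For genes that neurons hold at many times the level of glia, the glial differences were set beside the neuronal ones. Among 62 tested genes with a mean level at least 20 times higher in neurons grown with wild-type glia than in wild-type glia, the correlation across genes between the mean log2 difference in glia (WTG_MTN minus WTG_WTN, 5 pairs) and in neurons (MTN_WTG minus WTN_WTG, 3 pairs) was r = 0.70 (rho 0.31). Without Nefm it was r = 0.46 (rho 0.27), and without all 3 neurofilament genes r = 0.35 over 59 genes. The ratio of 20 was chosen after the data had been seen: r was 0.35 over 389 genes at a ratio of 5, 0.53 over 168 genes at 10 and 0.77 over 41 genes at 30. Without Nefm these were 0.26, 0.41 and 0.52. By rank the values were lower: rho was 0.11 at a ratio of 5, 0.21 at 10 and 0.36 at 30. At a ratio of 20 without the 3 neurofilament genes rho was 0.20. Over the 13829 genes with a ratio under 20 r was 0.028 (rho -0.013). The points are genes of the same libraries, not independent replicates. The ratio of neurons to glia sets values from separate scales against each other. Of the 62 genes, 2 were higher and 3 lower in all 5 glial pairs, near the 6.52% and 6.05% of all genes that were higher and lower in all 5.

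The next genes by p did not pass the threshold and are given as values. Gdf15, a secreted stress-response member of the TGF-beta family, was at 21.8, 2.95, 3.30, 6.03 and 1.12 RPKM in WTG_MTN and at 33.8, 6.02, 4.73, 8.32 and 2.30 RPKM in WTG_WTN, in the order of the pairs above. It was lower in all 5 pairs although the groups overlapped widely, since both followed the day and replicate. The log2 difference was -0.58 (SE 0.073, adjusted p = 0.083 by limma). Fosl1, which encodes the AP-1 transcription factor subunit Fra-1, was at 6.77, 3.46, 5.46, 6.59 and 4.86 RPKM in WTG_MTN and at 14.7, 5.98, 7.20, 10.5 and 8.95 RPKM in WTG_WTN, lower in all 5 pairs. Only 2 of its WTG_MTN libraries exceeded the lowest WTG_WTN library, and the log2 difference was -0.67 (SE 0.087, adjusted p = 0.083). Tnfrsf12a, the receptor of the cytokine TWEAK, was at 99.3, 72.1, 85.7, 126 and 91.8 RPKM in WTG_MTN and at 148, 107, 98.6, 149 and 138 RPKM in WTG_WTN, lower in all 5 pairs, with a log2 difference of -0.43 (adjusted p = 0.21 by limma). Flnc, an actin cross-linking filamin, averaged 73.0 ± 15.6 RPKM in WTG_MTN and 90.2 ± 17.5 RPKM in WTG_WTN (-0.31, adjusted p = 0.21), and Ppan, a ribosome biogenesis factor, 10.3 ± 2.93 RPKM and 14.0 ± 4.41 RPKM (-0.40, adjusted p = 0.21). The other 4 of the 10 lowest, the RIKEN gene 4930404N11Rik and 3 UCSC transcripts with no gene name, had log2 differences of -0.31 to -0.44.

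When reads recovered from the RPKM were tested with limma voom in place of the log2 values, 6 genes passed. These were Nefm (log2 difference -1.37, adjusted p = 8.8e-05), Gdf15 (-0.69, adjusted p = 0.022), Tnfrsf12a (-0.45, adjusted p = 0.022) and Flnc (-0.31, adjusted p = 0.040), all lower beside mutant neurons, with Cd163 (-1.14, adjusted p = 0.022) lower and Ttr (0.62, adjusted p = 0.022) higher. Cd163, a macrophage scavenger receptor, was low and uneven on the RPKM scale: it averaged 0.68 ± 1.19 RPKM in WTG_MTN and 1.55 ± 3.04 RPKM in WTG_WTN (SD, n = 5 each) and was higher in WTG_MTN in 1 pair. Its difference came mainly from day 14 replicate 2, with a log2 difference of -1.07 against -0.18 to 0.041 in the other pairs.

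Genes on the higher side did not pass the threshold either. Ttr, which encodes transthyretin, a thyroid hormone carrier made by the choroid plexus, was at 51.5, 16.1, 12.7, 8.14 and 0.27 RPKM in WTG_MTN and at 30.8, 10.95, 9.10, 6.56 and 0.079 RPKM in WTG_WTN, in the order of the pairs. It was higher in all 5 pairs, while within each group it ranged far more widely between libraries than between partners. The log2 difference was 0.44 (SE 0.076, adjusted p = 0.21 by limma). Dnal1, a light chain of axonemal dynein, averaged 15.0 ± 7.27 RPKM in WTG_MTN and 11.5 ± 5.17 RPKM in WTG_WTN (0.35), Spef2, a protein of motile cilia and flagella, 2.49 ± 0.72 RPKM and 1.73 ± 0.69 RPKM (0.37), and Riiad1 9.14 ± 4.11 RPKM and 6.96 ± 3.43 RPKM (0.36; SD, n = 5 each). The adjusted p of these 3 genes was 0.21 to 0.23. Fbxo16, an F-box protein, differed by 0.33, Tceal1 by 0.31, Gm941 by 0.37 and AI429214 by 0.31, and 2 UCSC transcripts with no gene name by 0.35 and 0.57. Of the 6 ependymal and cilia markers tested, all 6 had a log2 difference above 0 (median 0.098), none was higher in all 5 pairs, and their summed level was higher in WTG_MTN in 3 of 5 pairs.

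**Figure D3:**
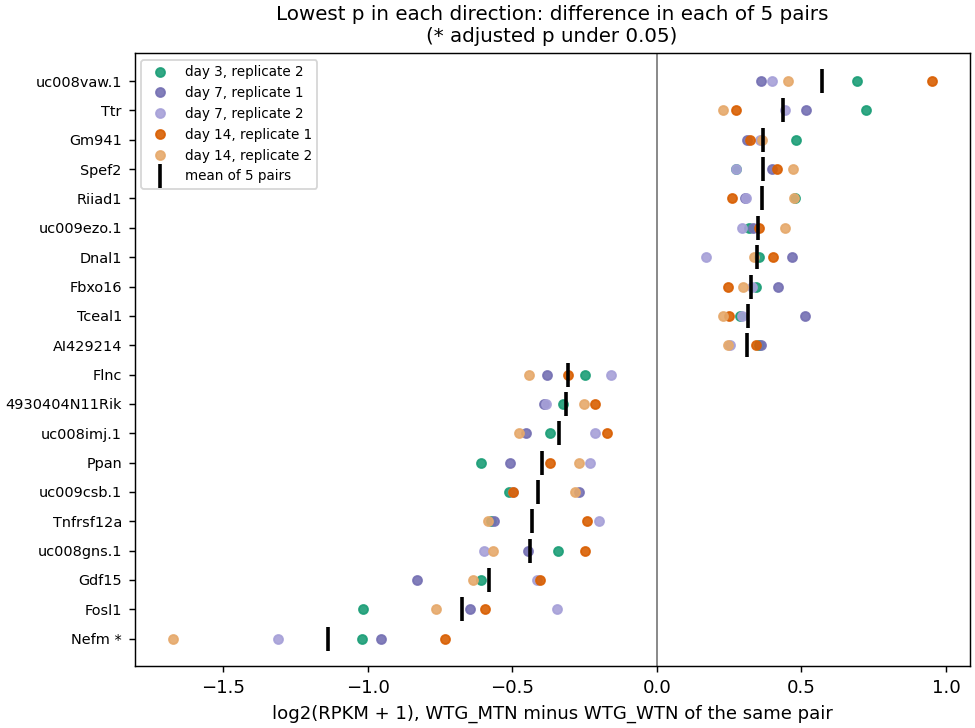
Log2(RPKM + 1) difference between WTG_MTN and WTG_WTN glia of the same day and replicate number (horizontal axis) for the 10 genes of lowest p in each direction among those with the same sign in all 5 pairs. Coloured points are the 5 pairs, black ticks their mean, and the asterisk marks Nefm, the 1 gene with an adjusted p under 0.05. The means of the other 19 lie between -0.67 and 0.57.

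Activity-induced early genes, which cells switch on within minutes of calcium, growth factor or stress signals, were the list with the lowest median. Of 20 genes, 19 were tested, 7 were lower in all 5 pairs (6.05% of all genes tested were) and none was higher in all 5. None passed the threshold. The median log2 difference of the 19 was -0.22, against -0.00048 over all genes, and 18 of them lay below 0. By pair, the median was -0.35 at day 3, -0.20 and -0.15 at day 7, and 0.015 and -0.40 at day 14 (replicates 1 and 2), so that day 14 replicate 1, the pair with the smallest library, did not share it. In that pair 9 of the 19 genes were lower, against 15 to 17 in each of the others.

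The 7 genes lower in every pair, singled out after their values were seen, were Fosl1, Egr1, Egr2, Egr3, Ier2, Junb and Jund. Egr1, a zinc-finger factor, was at 25.3, 22.9, 14.4, 94.7 and 66.6 RPKM in WTG_MTN and at 34.1, 26.8, 16.2, 105 and 100 RPKM in WTG_WTN, in the order of the pairs, with a log2 difference of -0.31 (SE 0.069, adjusted p = 0.36 by limma). Both groups were several times higher at day 14 than at day 7, and the partner difference was smaller than that spread. Junb, an AP-1 subunit, was at 49.7, 34.8, 26.6, 67.8 and 50.4 RPKM in WTG_MTN and at 57.6, 57.0, 30.4, 68.8 and 62.7 RPKM in WTG_WTN (-0.28, adjusted p = 0.38, and -0.18 without day 7 replicate 1). Fosb, another AP-1 subunit, had the next largest mean difference after Fosl1, -0.62 (SE 0.25, adjusted p = 0.44), of which the day 3 pair gave -1.97 (3.24 RPKM in WTG_MTN, 15.6 RPKM in WTG_WTN) and day 14 replicate 1 gave 0.30. Without the day 3 pair it was -0.28. Fos itself had -0.10, with 2 pairs higher and 3 lower, and Nr4a2, an orphan nuclear receptor, was the 1 member above 0 (0.026). In mutant glia the same 19 genes had a median log2 difference of -0.12 between MTG_MTN and MTG_WTN over 6 pairs, with 16 of 19 below 0 and none lower in all 6.

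**Figure D4:**
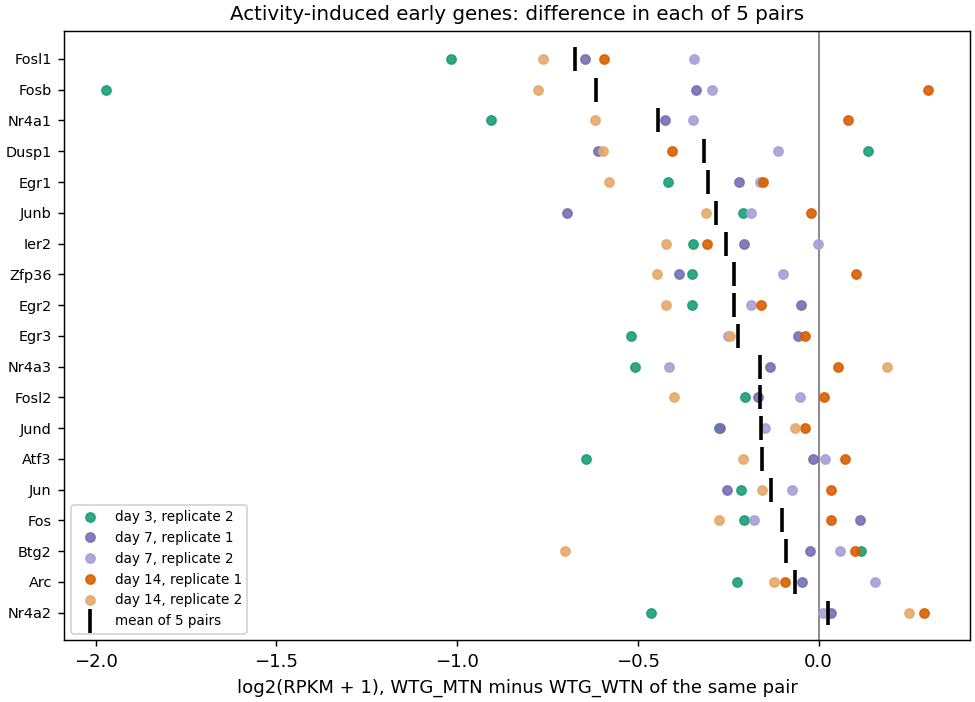
Log2(RPKM + 1) difference between WTG_MTN and WTG_WTN glia of the same day and replicate number (horizontal axis) for the 19 activity-induced early genes tested. Coloured points are the 5 pairs and black ticks their mean. Of the 19 means, 18 lie below 0, and the points of day 14 replicate 1 lie on both sides of 0.

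The promoters of early genes are known for CArG boxes, the sites that serum response factor binds, and 2 of them are shown because they hold one within the window that was searched. RefSeq promoters (250 bases before to 50 after the start, GRCm38.p6) were found for 14 of the 19 early genes, and those of 2, Egr2 and Zfp36, held a CArG box, as did 1.63% of 32851 promoters of this length. None of the 14 held the AP-1 motif TGANTCA on either strand (7.81% of all promoters did), and 1, Atf3, held the amino acid response element core TGATGNAA (3.97% did). Of the 10 genes of lowest p on the lower side 4 had a promoter in the table, and of the 10 on the higher side 3, and none held any of the 3 motifs. The counts for gene sets are of genes with a match in any of their promoters, and Egr2 has several. The percentages are of single promoters, so the figures are not in the same unit. Matches are letters in a window, not binding sites. Egr2 was at 4.33, 1.63, 1.09, 6.15 and 3.49 RPKM in WTG_MTN against 5.79, 1.72, 1.37, 6.98 and 5.01 RPKM in WTG_WTN, and Zfp36, which encodes the mRNA-destabilizing protein tristetraprolin, was lower in 4 of 5 pairs (mean log2 difference -0.23, adjusted p = 0.40 by limma). The Egr2 window is chr10:67537619-67537918 on the plus strand and the Zfp36 window chr7:28379179-28379478 on the minus strand, both written 5′ to 3′ with the CArG box in capitals.
Egr2: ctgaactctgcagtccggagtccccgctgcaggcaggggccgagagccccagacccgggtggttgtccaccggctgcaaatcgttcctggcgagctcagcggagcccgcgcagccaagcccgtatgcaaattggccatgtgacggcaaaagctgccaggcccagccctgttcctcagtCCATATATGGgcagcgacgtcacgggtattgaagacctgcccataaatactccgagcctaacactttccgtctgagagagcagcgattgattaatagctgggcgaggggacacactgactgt
Zfp36: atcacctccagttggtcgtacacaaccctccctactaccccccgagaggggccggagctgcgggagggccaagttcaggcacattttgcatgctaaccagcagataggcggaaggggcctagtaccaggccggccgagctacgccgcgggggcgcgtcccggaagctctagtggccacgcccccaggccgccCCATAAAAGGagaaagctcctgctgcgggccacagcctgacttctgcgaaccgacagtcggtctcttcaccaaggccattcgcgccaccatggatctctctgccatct

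Inflammatory genes lay on the lower side in most pairs, with no member past the threshold. Of 15 cytokine and chemokine genes tested, 14 had a log2 difference below 0, and the median was -0.18. Of these genes 1, Cxcl10, was lower in all 5 pairs. Such counts, here and for the lists that follow, are to be read against all genes tested. Of those, 6.05% were lower and 6.52% higher in all 5 pairs. The 2 largest differences were those of Cxcl2 (-0.40, SE 0.15, adjusted p = 0.42 by limma) and Cxcl1 (-0.36, SE 0.33, adjusted p = 0.69), both neutrophil chemokines. Without the day 3 pair the mean of Cxcl2 was -0.22. Cxcl1 was at 1.83 RPKM in WTG_MTN against 10.7 RPKM in WTG_WTN at day 3 and was higher in WTG_MTN in 3 other pairs, so that without the day 3 pair its mean was 0.06. By pair the median of the list was -0.50 at day 3, -0.13 and 0.009 at day 7 and -0.084 and -0.22 at day 14. Of 15 genes of the NF-kB pathway, 4 were lower in all 5 pairs and 1 higher, with a median of -0.095. Nfkbia, the inhibitor that NF-kB itself induces, averaged 46.6 RPKM in WTG_MTN and 55.9 RPKM in WTG_WTN (-0.26, SE 0.073, adjusted p = 0.38), and Nfkbie, a related inhibitor, 4.55 RPKM and 5.38 RPKM (-0.21). Of 11 antigen presentation genes 3 were lower in all 5 pairs (median -0.12). The class II gene H2-Ab1 had the largest difference (-0.32, adjusted p = 0.38 by limma) and was lower in 4 of 5 pairs. The immunoproteasome subunit Psmb9, lower in all 5, had -0.24 (adjusted p = 0.38 by limma), or -0.16 without day 7 replicate 1. Of 21 interferon-induced genes, 15 had a mean above 0 (median 0.044), 2 were higher in all 5 pairs and none was lower in all 5. Their direction differed between pairs: 19 of 21 were lower at day 3 (median -0.19), 4 and 11 at day 7 (medians 0.15 and -0.00063) and 4 and 2 at day 14 (medians 0.12 and 0.24). Beside these lists, the summed microglia and macrophage markers were higher in WTG_MTN in 2 of 5 pairs, with 14 of 16 lower at day 3 and none of 16 lower at day 7 replicate 2. Their part in the inflammatory values was not tested.

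Genes of stress responses lay more often below 0 than above, with members on both sides. The log2 difference was below 0 for 12 of 17 ATF4 response genes, 10 of 15 p53 targets and 12 of 16 NRF2 targets. Of 17 targets and members of the ATF4 response tested, which cells use to adapt to shortage of amino acids and to endoplasmic reticulum stress, 4 were lower in all 5 pairs and 2 were higher, and the median was -0.049. Ddit3, the pro-apoptotic factor CHOP, was at 72.3, 97.0, 53.7, 59.8 and 92.8 RPKM in WTG_MTN and at 85.4, 206, 57.4, 63.7 and 135 RPKM in WTG_WTN, in the order of the pairs. It was lower in each pair, most at day 7 replicate 1, with a mean log2 difference of -0.41 (SE 0.13, adjusted p = 0.38 by limma), or -0.24 without that pair. Trib3, a pseudokinase that ATF4 and CHOP induce, averaged 2.63 RPKM in WTG_MTN and 3.76 RPKM in WTG_WTN (-0.36, SE 0.070, adjusted p = 0.25), Atf4 itself 61.0 RPKM and 70.0 RPKM (-0.19) and the mitochondrial folate enzyme Mthfd2 7.57 RPKM and 9.09 RPKM (-0.24). The serine synthesis enzyme Psat1 went the other way in all 5 pairs (0.14, adjusted p = 0.40), as did the cystine transporter Slc7a11 (0.10). Of 15 p53 targets 3 were lower in all 5 pairs and none was higher: Gdf15, Phlda3 and the cell cycle inhibitor Cdkn1a, which averaged 251 RPKM in WTG_MTN and 292 RPKM in WTG_WTN (-0.22, adjusted p = 0.36). Of 16 NRF2 targets 3 were lower and 1 higher in all 5 pairs (median -0.087), among them Hmox1, the heme oxygenase, at -0.22 (adjusted p = 0.36), while Ftl1, the ferritin light chain, was lower in 4 pairs (-0.25, adjusted p = 0.38). Of 14 TGF-beta target genes 4 were lower in all 5 pairs and none was higher (median -0.081), among them Ccn2, Cdkn1a and Junb, the last of which is also on the early gene list. The 12 TGF-beta ligands and receptors had a median of -0.0051. For comparison with the counts of these lists, 6.05% of all genes tested were lower and 6.52% higher in all 5 pairs.

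The homeostatic genes of astrocytes lay slightly above 0. All 14 astrocyte markers had a mean log2 difference above 0, with a median of 0.078, and 3 were higher in all 5 pairs, against 6.52% of all genes tested. By pair the median was 0.17 at day 3, -0.11 and 0.040 at day 7 and 0.10 and 0.20 at day 14. Slc1a3, which encodes the glutamate transporter GLAST, was at 108, 152, 173, 103 and 200.4 RPKM in WTG_MTN and at 90.5, 130.1, 162, 88.1 and 159 RPKM in WTG_WTN, in the order of the pairs, with a log2 difference of 0.22 (SE 0.050, adjusted p = 0.36 by limma). Gja1, the gap junction protein connexin 43, was at 204, 235, 197, 175 and 147 RPKM in WTG_MTN and at 190.4, 188, 192, 153 and 128 RPKM in WTG_WTN (0.17, SE 0.054, adjusted p = 0.38). Both were higher in each pair, and in both genes the groups overlapped. Kcnj10, the inward rectifier Kir4.1 that buffers potassium, averaged 0.21 higher (SE 0.068, adjusted p = 0.38), in 4 of 5 pairs. Gfap, the intermediate filament that reactive astrocytes raise, was at 61.1 to 401 RPKM in WTG_MTN and 75.2 to 338 RPKM in WTG_WTN, with a log2 difference of 0.086 (SE 0.087) and 3 pairs higher. The summed astrocyte markers were higher in WTG_MTN in 4 of 5 pairs. In mutant glia the 14 markers had a median difference of 0.073 between MTG_MTN and MTG_WTN.

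Reactive astrocyte genes showed no common direction. Members with the same sign in all 5 pairs compare with 6.52% higher and 6.05% lower over all genes tested. Of 13 pan-reactive genes 8 lay above 0 and 5 below (median 0.086), of 11 neurotoxic-type genes 6 above and 5 below (median 0.026) and of 11 ischaemia-type genes 4 above and 7 below (median -0.059). The guanylate-binding protein Gbp2 was higher in all 5 pairs by 0.19 (adjusted p = 0.42 by limma; 0.11 without day 7 replicate 1), and the sphingosine kinase Sphk1 was lower in all 5 by 0.36 on average (adjusted p = 0.36). Of 16 neurotrophic factors and receptors, 2 were higher and 1 lower in all 5 pairs, the last being Gdnf (-0.17, adjusted p = 0.48), the glial factor that sustains motor neurons, and the largest difference was that of the cytokine Lif (-0.19, adjusted p = 0.42). Of 15 complement genes 10 lay above 0 (median 0.072), with C3, the central component, at 0.19 and the C1q chain gene C1qc at -0.16, and of 17 lysosome and phagocytosis genes 13 lay below 0 (median -0.076), with Gpnmb, a glycoprotein of phagocytes, lower in all 5 pairs (-0.25, adjusted p = 0.36).

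No metabolic list had a member past the threshold. Over all genes tested, 6.52% were higher and 6.05% lower in all 5 pairs. All 13 fatty acid synthesis genes had a mean log2 difference above 0, with a median of 0.059, and 3 were higher in all 5 pairs: Scd1 and Scd2, the stearoyl-CoA desaturases, by 0.15 and 0.11 (adjusted p = 0.42 and 0.47 by limma) and Elovl5 by 0.098. Of 19 cholesterol synthesis genes 14 lay above 0, none was higher or lower in all 5 pairs, and the median was 0.046. Of 19 genes of glycolysis and lactate 15 lay below 0 (median -0.069), the largest differences being those of the lactate exporter gene Slc16a3 (-0.28, adjusted p = 0.49) and the glycolytic enzyme gene Pgam1 (-0.27, adjusted p = 0.45), and Ldha, lactate dehydrogenase A, was lower in all 5 pairs (-0.20, adjusted p = 0.42). These values came mainly from day 7 replicate 1, where the differences were -0.81 for Pgam1 and -0.56 for Ldha and that of Slc16a3 was larger still. Without that pair the means were -0.11 for Slc16a3, which was higher in 2 pairs, and -0.13 for Pgam1. The median of the list was -0.36 in that pair, 0.15 at day 3 and -0.053 to 0.0010 in the others. Of 16 collagens and 23 extracellular matrix genes none was higher or lower in every pair. Oligodendrocyte lineage markers had a median of 0.14, of which the pair of day 14 replicate 2 gave 0.58 and the others -0.080 to 0.17. Mbp, a major protein of myelin, was higher in all 5 pairs by 0.26 (adjusted p = 0.39 by limma), or by 0.16 without day 14 replicate 2.

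**Figure D5:**
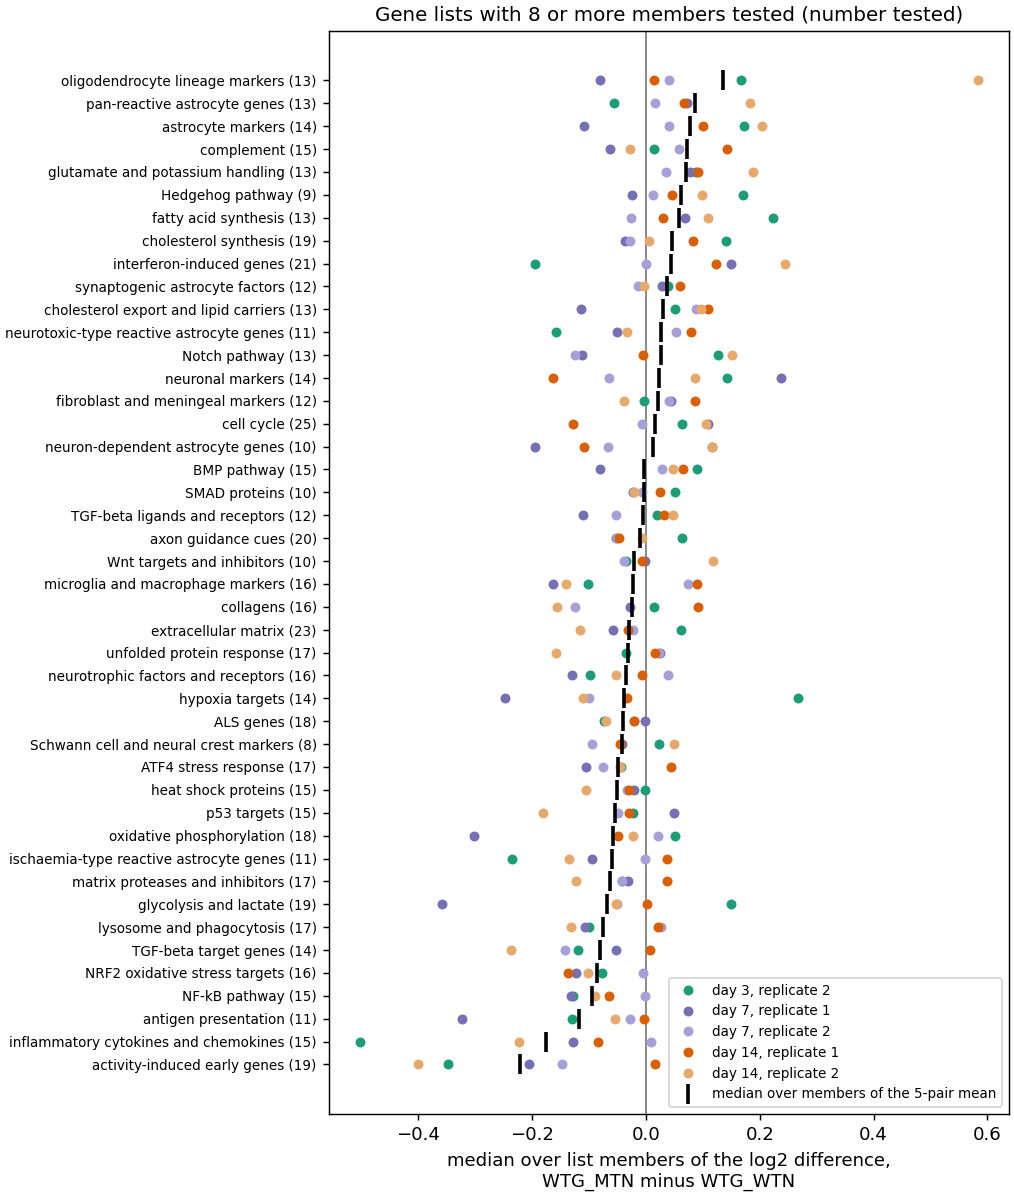
Median over the members of each gene list of the log2(RPKM + 1) difference between WTG_MTN and WTG_WTN glia (horizontal axis), for lists with 8 or more members tested (number in brackets). Coloured points are the 5 pairs and black ticks the median of the members' 5-pair means. The ticks run from -0.22 for activity-induced early genes to 0.14 for oligodendrocyte lineage markers, where the pair of day 14 replicate 2 lies at 0.58.

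Of 18 genes tested in which mutations cause amyotrophic lateral sclerosis 7 lay above 0 and 11 below (median -0.041), and none passed the threshold. Mouse Sod1 was at 172, 287, 172, 210.4 and 175 RPKM in WTG_MTN and at 184, 378, 182, 239.9 and 193 RPKM in WTG_WTN, lower in each pair by 0.18 on average (SE 0.058, adjusted p = 0.38 by limma). It does not check the labelled genotypes. Mutant glia were at 197 to 1236 RPKM and overlapped wild-type glia, whose unpaired library of day 3 replicate 1 had 1231 RPKM, and all 3 glial libraries of day 3 replicate 1 lay at 834 to 1236 RPKM. Ang, which encodes angiogenin, was lower in all 5 pairs (-0.15, adjusted p = 0.43 by limma).

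By day, no gene passed the threshold in a model of all 23 glial libraries with the mean of each pairing and day and the replicate number within the day as block. Of 14283 genes tested, limma called 0 at day 3 (178 at an unadjusted p under 0.05, 1.25%), 0 at day 7 (195, 1.37%) and 0 at day 14 (176, 1.23%). The block was shared by both glial genotypes, and fewer genes than chance gives on average had an unadjusted p under 0.05. The day 3 contrast holds 1 pair and the unpaired WTG_WTN library. Nefm had log2 differences of -1.50 (SE 0.65) at day 3, -1.13 (SE 0.50) at day 7 and -1.20 (SE 0.50) at day 14 in this model. The glycolytic activator Pfkfb3 had one of the lowest p at day 3, with 68.7 RPKM in WTG_MTN against 43.5 RPKM in WTG_WTN replicate 2 and 59.5 RPKM in replicate 1. At day 7 Inha, the inhibin alpha chain, was at 4.77 and 3.62 RPKM in WTG_MTN and at 6.86 and 5.45 RPKM in WTG_WTN, lower in both pairs. At day 14 Ccn5, a matricellular protein of the CCN family, was at 34.4 and 9.73 RPKM in WTG_MTN and at 22.9 and 5.98 RPKM in WTG_WTN, higher in both pairs. At day 7 the Ccn5 levels were 32.1 and 34.0 RPKM in WTG_MTN against 36.6 and 36.2 RPKM in WTG_WTN, so that Ccn5 was also among the genes of lowest p for day 14 minus day 7 (0.73, SE 0.17, adjusted p = 1.0 by limma). That difference between days had 0 genes past the threshold (113 at an unadjusted p under 0.05, 0.791%). The prolyl isomerase Pin4 led its lower side, with 0.42 and 0.50 RPKM in WTG_MTN against 2.42 and 1.23 RPKM in WTG_WTN at day 14.

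Glia that carry the mutation themselves were set beside these glia to see whether the response to mutant neurons differed. No gene passed the threshold for the difference between the 2 glial genotypes (0 of 14283 by limma, with 68 at an unadjusted p under 0.05, 0.476%). Nefm was lower in MTG_MTN than in MTG_WTN in all 6 pairs, by 1.30 on average, and the difference in wild-type glia minus that in mutant glia was 0.027 (SE 0.43, adjusted p = 1.0). Gdf15 was lower in 5 of the 6 pairs of mutant glia (mean -0.58) and Fosl1 in 5 of 6 (mean -0.37). Both means came mainly from day 3 replicate 2. That pair gave -2.18 for Gdf15, against -0.84 to 0.20 in the others, and -1.34 for Fosl1, against -0.47 to 0.18. Tnfrsf12a was lower in 3 of 6. On the higher side Ttr was higher in 5 of 6 pairs of mutant glia (mean 0.10), while Riiad1 and Dnal1 were higher in 3 of 6 (means 0.015 and -0.019). The interval of a difference between the genotypes was wide in this model: the SE was 0.92 for Gdf15 and 0.35 for Fosl1. Its block joined same-numbered libraries of both glial genotypes. At day 14 these deviated together less across genotypes (r 0.23 to 0.34) than within one (r 0.85 and 0.89). Fewer genes than chance gives on average had an unadjusted p under 0.05. Over the within-pair values, a test chosen after seeing the data, the SE was 0.32 for Gdf15 and 0.21 for Fosl1, and no gene passed.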

How the data were processed

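RNA from glia or neurons of mouse co-cultures was sequenced, and 43 culture libraries (23 glial) stand in 1 table of 27389 entries. Its values are RPKM made by the authors. Bowtie and the mm9 build are named in the submitters' processing notes, with no versions or settings. The labels' protocols give Trizol and RNeasy extraction and either standard Illumina or Nextera libraries, without saying which library was made how, so that this cannot be told apart from the groups. The 127 entries without values were left out. The table of spinal cord samples was not used here. Entries were named by Entrez number (18851) or synonym (550) and otherwise kept the deposited name, and 369 symbols had several entries, between which reads may be split.

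The RPKM of the glial libraries were divided by median-of-ratios factors and analysed as log2(RPKM + 1) with limma 3.58.1 in R 4.3.3, with the trend of variance with mean. The neuronal libraries did not enter the scaling factors of the glia. Genes at 1 RPKM or more in at least 2 libraries were kept. The 10 paired libraries were fitted with the pair (day and replicate number) as block, and a gene passed the test if its p, adjusted after Benjamini and Hochberg, was under 0.05. Fold changes of low genes are understated on this scale. Same-numbered libraries deviated together in 15 of 15 comparisons (r above 0.1, median 0.71). For WTG_MTN and WTG_WTN r was 0.77 at day 7 and 0.85 at day 14, so the numbers pair these libraries. The day 3 pair could not be checked in this way, since WTG_MTN has 1 library there. The labels do not say whether replicates are separate cultures, and p-values measure the spread between these libraries only. The sex-linked gene Eif2s3y was at 3.65 RPKM in WTG_MTN and 4.16 RPKM in WTG_WTN at day 14 replicate 1. At day 14 replicate 2 it was at 31.5 and 32.9 RPKM, and at day 7 at most at 0.17 RPKM in either group. What these levels say about the origin of the replicates was not tested. Replicates of a group differed by more than sampling noise (chi-square per gene 35.8 to 62.8). Days, the difference between days and the difference between glial genotypes were tested in 1 limma fit of 23 libraries. Whole reads were recovered from RPKM steps for 22775 of 22784 entries above 0 (within 0.1 read) and tested with voom. The fit of the pairs, the fits by day and the difference between glial genotypes were first tested on simulated data. The voom fit, the fits without a replicate block and the main comparison in all 23 glial libraries were not.

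The 54 gene lists and the members were chosen with earlier results of these data known. Named are, by rule, the 10 genes of lowest p in each direction with the same sign in all pairs, the 2 members of largest change of the lists described and the 2 genes of lowest p in each other test, and beyond it genes lower or higher in all 5 pairs, chosen after their values were seen. Results of some list members are not reported here.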

Additional observations from a re-analysis of the deposited data

Results flagged for a closer look

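In 7 genes the within-pair log2 difference of 1 of the 5 pairs stood apart from the other four (Dixon's test at 95%, which chance meets in about 1 of 20 groups). Dixon's test was run on every gene named by rule in the comparison of the 5 pairs, list members included. Several such genes would therefore arise by chance alone. At day 14 replicate 2, Gpr17, a receptor of oligodendrocyte precursors, was the highest at 1.06, and Des, which encodes desmin, the lowest at -0.52. At day 7 replicate 1, Tceal1 (0.51), Ogn (0.53), a fibroblast proteoglycan, and Gbp2 (0.49) were the highest. Ptch1, the Hedgehog receptor, was highest at day 3 replicate 2 (0.29) and Chrdl1, a BMP antagonist of astrocytes, at day 14 replicate 1 (0.57). Of 13891 genes, 841 were lower beside mutant neurons in all 5 pairs of wild-type glia, and 181 were higher in all 6 pairs of mutant glia. How many genes did both was not counted, and some would do so by chance. Ang did both: it was lower beside mutant neurons in all 5 pairs of wild-type glia (-0.15) and higher in all 6 pairs of mutant glia (0.18). The test of this difference over the within-pair values, which was chosen after seeing the data, gave -0.33 (SE 0.086, adjusted p = 1.0 by limma), so that it did not pass.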

How the results depend on the processing

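The number of genes called in the 5 pairs was 1 with the values as deposited, with upper quartile scaling, with a pseudocount of 0.1 or 0.5 and with a filter at 5 RPKM. It was 0 with no filter on low values, 0 with no replicate block, 0 with all 23 glial libraries in 1 model and 0 with eBayes without trend, and 6 with voom on recovered reads. Leaving out 1 pair gave 0 to 1. Across these 15 alternatives the log2 difference of Nefm was below 0, lowest with voom (-1.37), and its adjusted p was 0.57 with no filter, 1.0 with no replicate block, 0.999 with 23 libraries and 0.076 without the trend. With no filter on low values 5 genes passed at day 3, 3 at day 7 and 3 for the difference between glial genotypes, against 0 each. At day 3, leaving out WTG_WTN replicate 2, which leaves the unpaired library as the only WTG_WTN library of that day, gave 58 calls, and leaving out single libraries gave 0 to 58 there and 0 in the other tests. A block per glial genotype, day and number, and within-pair differences of 5 against 6 pairs, both chosen after seeing the data, gave 0 calls. Of 2061 values of single genes under alternatives, 12 changed sign, all of genes that did not pass: Prph without day 14 replicate 1 (0.13) and with voom (0.056); Tnni1 with no replicate block (-0.063), without day 14 replicate 1 (-0.076) and with voom (-0.021); Eif2s3y with no replicate block (0.046) and with 23 libraries (0.055); Ddx3y with a pseudocount of 0.1 (0.068), with no replicate block (0.054) and with 23 libraries (0.036); Cxcl1 without day 3 replicate 2 (0.060); and Apod with no replicate block (-0.073). Leaving out 1 pair gave a range of -0.36 to 0.13 for Prph, -0.076 to 0.24 for Tnni1 and -0.65 to 0.060 for Cxcl1. The cause of these changes was not tested. With 3740497 reads on genes in WTG_WTN day 14 replicate 1, low genes of that pair are the least precise.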
